A study of Arabidopsis thaliana with 3 samples.

Results

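The beta-tubulin genes of Arabidopsis thaliana, TUB1 to TUB9, were followed in libraries of uncapped and of total polyA RNA from flower buds. All 9 were chosen by gene identifier: TUB1 (AT1G75780), TUB2 (AT5G62690), TUB3 (AT5G62700), TUB4 (AT5G44340), TUB5 (AT1G20010), TUB6 (AT5G12250), TUB7 (AT2G29550), TUB8 (AT5G23860) and TUB9 (AT4G20890). All 9 had a value in every library, as did 22417 of the 26810 genes with a value in at least 1. GMUCT, global mapping of uncapped transcripts, was done in 1 library. It reads the 5′ ends of polyA RNAs that lack a cap, as left by decapping or by cleavage. Ordinary RNA-seq covered the polyA RNA in 2 libraries. All 3 came from immature inflorescences of untreated dcl1-7 plants, about 4 weeks old and kept in days of 16 h light and 8 h dark, and were read strand-specifically over 50 nt. The allele dcl1-7 is a partial loss-of-function allele of DCL1, which releases microRNAs from their hairpin precursors. Both groups carried it and no other genotype was analysed here, so the comparison is between uncapped and total polyA RNA and not between genotypes.

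Microtubules are hollow polymers of heterodimers of alpha- and beta-tubulin, and beta-tubulin is the subunit that hydrolyses its bound GTP and faces the growing end. In plant cells they guide cellulose synthesis at the cortex, mark the division plane, and build the spindle and the phragmoplast. In flower buds they serve dividing primordia, meiosis and pollen growth. Plants carry several beta-tubulin genes whose products are close in sequence and whose expression differs by tissue. In animal cells a factor reads the N-terminus of nascent tubulin and triggers decay of the mRNA being translated when free dimers are in excess.

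The tissue label was checked against marker genes. The 6 floral markers LFY, AP1, AP3, PI, AG and SEP3 summed to 353.96 RPKM in GMUCT and to 418.65 and 417.94 RPKM in RNA-seq, where RPKM is the number of reads divided by gene length and by library size. The 4 root markers summed to 3.18 RPKM in GMUCT and to 1.87 and 1.15 RPKM in RNA-seq, and RHD6 and EXP7 among them had no value in either RNA-seq library. LFY alone does not separate the lists, at 0.67 RPKM in GMUCT and 1.0 and 1.63 RPKM in RNA-seq. The root marker COBL9 had 1.3 RPKM in GMUCT and 1.74 and 1.15 RPKM in RNA-seq. DCL1 itself was listed at 7.57 RPKM in GMUCT and at 16.04 and 15.18 RPKM in RNA-seq, which does not check the allele. Depth, estimated from the spacing of low RPKM values, was about 19400000 reads in GMUCT and about 18300000 and 8640000 reads in RNA-seq. At those depths TUB1, the lowest member, rested on about 187 reads in GMUCT and about 235 and 111 reads in RNA-seq.

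The gene models were alike. All 9 genes had 3 coding exons in the TAIR10.1 annotation, the second of 270 nt in every gene. The first coding exon was of 397 nt in TUB1 and TUB5 and of 394 nt in the other 7. Coding length ran between 1335 nt in TUB4 and TUB9 and 1353 nt in TUB2 and TUB3, and TUB6 had 4 exons in all where the others had 3. Transcript length ran between 1797 nt in TUB4 and 2180 nt in TUB9. The genes lie on chromosomes 1, 2, 4 and 5, and TUB2 (chr5:25181296-25183811, plus strand) and TUB3 (chr5:25184258-25186777, plus strand) are neighbours in TAIR10.1.

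The first 60 coding bases encode the start of the nascent chain and are shown, from the RefSeq TAIR10.1 sequence, to let the copies be compared. Capitals mark bases that differ from TUB2.
TUB2: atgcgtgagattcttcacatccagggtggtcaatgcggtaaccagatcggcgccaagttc
TUB3: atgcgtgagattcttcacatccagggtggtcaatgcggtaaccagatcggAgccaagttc
TUB7: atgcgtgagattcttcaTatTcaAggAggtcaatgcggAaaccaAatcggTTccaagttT
TUB8: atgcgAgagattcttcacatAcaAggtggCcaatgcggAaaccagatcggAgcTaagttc
TUB6: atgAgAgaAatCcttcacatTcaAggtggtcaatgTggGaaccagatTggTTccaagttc
TUB4: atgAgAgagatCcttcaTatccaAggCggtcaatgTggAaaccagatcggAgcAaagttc
TUB9: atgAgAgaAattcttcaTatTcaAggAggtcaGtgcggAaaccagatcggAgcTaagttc
TUB5: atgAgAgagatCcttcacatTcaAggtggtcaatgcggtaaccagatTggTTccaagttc
TUB1: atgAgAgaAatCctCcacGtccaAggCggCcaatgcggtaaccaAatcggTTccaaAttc
TUB3 differed from TUB2 at 1 of these 60 bases and the other 7 genes at 7 to 13, with TUB8 the nearest of the 7 and TUB1 the farthest.

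The last 60 coding bases encode the C-terminal tail, where tubulin isotypes are known to differ most, and are shown for the 3 closest pairs of genes. Capitals mark the stop codon.
TUB2: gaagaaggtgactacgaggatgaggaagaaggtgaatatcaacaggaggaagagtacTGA
TUB3: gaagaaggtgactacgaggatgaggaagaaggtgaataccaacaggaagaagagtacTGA
TUB5: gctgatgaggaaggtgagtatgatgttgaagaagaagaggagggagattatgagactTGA
TUB1: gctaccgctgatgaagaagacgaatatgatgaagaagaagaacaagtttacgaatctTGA
TUB4: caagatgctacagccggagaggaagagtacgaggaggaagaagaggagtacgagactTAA
TUB9: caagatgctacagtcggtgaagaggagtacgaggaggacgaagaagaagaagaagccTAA
Of the 19 codons before the stop, 8 in TUB1, 9 in TUB5 and 10 in each of the other 4 genes shown were GAA or GAG, which both encode glutamate. TUB3 had the same base as TUB2 at 58 of the 60 places. TUB1, TUB4 and TUB5 did so at 32 places and TUB9 at 33, counted from the stop codon without gaps.

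TUB2 and TUB3 were the closest copies, with 1321 of 1353 coding bases identical (97.6%). TUB1 and TUB5 followed with 87.4% and TUB4 and TUB9 with 87.3%. The longest run shared by TUB2 and TUB3, coding bases 52 to 278 counted from the start codon, is shown because a 50 nt read inside it cannot be assigned to either gene.
TUB2 and TUB3: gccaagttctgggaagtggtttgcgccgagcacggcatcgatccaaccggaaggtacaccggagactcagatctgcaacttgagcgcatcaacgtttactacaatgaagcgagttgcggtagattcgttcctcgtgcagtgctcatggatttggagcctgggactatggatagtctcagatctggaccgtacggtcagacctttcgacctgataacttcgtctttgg
Of all 50 nt windows of the transcript, 22.3% in TUB2 and 22.0% in TUB3 were found exactly in the other. In the other 7 genes at most 5 windows, or 0.235% of a transcript, had an exact match elsewhere in the nuclear genome or in another tubulin transcript. Values of TUB2 and TUB3 are uncertain to the extent that the authors' counting split such reads, dropped them or counted them for both genes.

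In RNA-seq the mean RPKM of the members spanned a 57.5-fold range. TUB2 was the most abundant, with 413.37 and 407.75 RPKM, and ranked at places 102 and 113 among all genes. TUB3 had 267.69 and 254.06 RPKM, TUB4 186.9 and 187.95 RPKM, TUB7 170.42 and 173.15 RPKM, and TUB6 149.45 and 141.34 RPKM. These 5 genes stood at least 73.25 RPKM above the other 4. TUB8, known for expression in vascular tissue, had 60.37 and 68.09 RPKM. TUB5 had 51.21 and 53.82 RPKM, and TUB9, known from pollen, had 45.82 and 46.16 RPKM. TUB1, known for expression in roots, was the lowest, at 7.13 and 7.15 RPKM. The values of neighbours in this order did not overlap between libraries, and the narrowest gap was 5.05 RPKM between TUB5 and TUB9. The RNA-seq libraries differed by 12.8% for TUB8 and by 0.280% to 5.74% for the other 8.

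In GMUCT the order was different. TUB3 was the highest, at 322.21 RPKM, followed by TUB2 at 257.29 and TUB4 at 122.82 RPKM. TUB5 took the fourth place with 70.42 RPKM, above TUB6 at 59.27 and TUB7 at 57.98 RPKM. TUB9 had 34.82, TUB8 31.36 and TUB1 5.34 RPKM. GMUCT has no replicate, so neighbours as close as TUB6 and TUB7, or TUB9 and TUB8, cannot be ordered. The values spanned a 60.3-fold range.

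**Figure D1:**
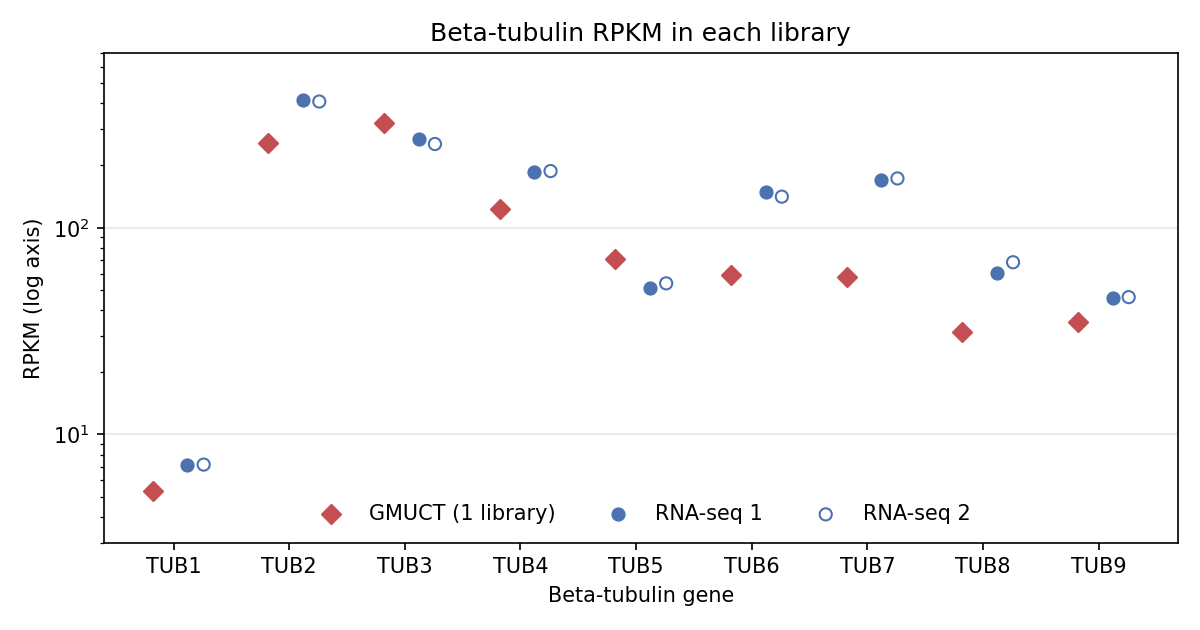
RPKM (log axis) of the 9 beta-tubulin genes in the GMUCT library (red diamonds) and in RNA-seq libraries 1 (filled circles) and 2 (open circles). The GMUCT point lies below both RNA-seq points in 7 genes and above both in TUB3 and TUB5.

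The comparison of GMUCT with RNA-seq sets the uncapped ends of each transcript against its abundance in polyA RNA. Both values are divided by gene length, although GMUCT reads 5′ ends, so the ratio is not a count of uncapped ends per mRNA molecule. Calls that changed with the length trend removed are given below. Of the 9 beta-tubulin genes 7 were called lower in GMUCT, TUB5 was called higher, and TUB3 did not pass the test. Of all 20214 tested genes 36.9% were called lower and 32.1% higher, 69.0% in all, so a call in either direction is common here. The median log2 ratio of the 9 genes was -0.61, against -0.07 for all tested genes, whose quartiles were -0.80 and 0.81. Between the quartiles lay 6 members, and TUB6, TUB7 and TUB8 lay below them. Calls are from limma on log2(RPKM + 0.5) with Benjamini-Hochberg adjustment over all tested genes. With 1 residual degree of freedom, the spread of GMUCT is taken to equal that between the RNA-seq libraries, and a permutation of 1 library against 2 cannot give a p under 0.333. In bulk tissue, fewer cells of a type and less RNA per cell cannot be told apart. The ratio between the assays measures neither. Markers of the tapetum, the anther layer that feeds developing pollen, were all 5 called lower (ACOS5, MS2, LAP5, LAP6 and A9). They summed to 219.13 RPKM in GMUCT and to 644.06 and 656.83 RPKM in RNA-seq, with a median log2 ratio of -1.76, and their part in the beta-tubulin values was not tested.

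TUB7 and TUB6 were the lowest of the family relative to their mRNA, and the GMUCT value of each lay at least 2-fold below both RNA-seq libraries. Of all tested genes 17.3% met this rule on the low side and 19.9% on the high side, where no beta-tubulin gene did. TUB7 had 57.98 RPKM in GMUCT, against 170.42 and 173.15 RPKM in RNA-seq, a ratio to the RNA-seq mean of 0.338. Its ratio on the log2 scale was -1.56 (SE 0.05; limma adjusted p = 0.00458). TUB6, whose mRNA is known to fall in the cold, had 59.27 RPKM in GMUCT and 145.4 ± 5.73 RPKM in RNA-seq (SD, n = 2), or -1.29 on the log2 scale (SE 0.06; limma adjusted p = 0.00557). TUB8 came next, with 31.36 RPKM in GMUCT and 64.2 ± 5.46 RPKM in RNA-seq (SD, n = 2). Its log2 ratio of -1.02 (SE 0.10; limma adjusted p = 0.0117) was -0.93 against RNA-seq library 1 and -1.11 against library 2, so it reached 2-fold against library 2 and not against library 1.

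Parts of some of these genes are overlapped by others. On the opposite strand, AT2G29540 covers 22.8% of the exon length of TUB7, and it had 23.49 RPKM in GMUCT and 4.2 and 3.53 RPKM in RNA-seq. AT4G20900 covers 21.0% of TUB9, at 0.84 RPKM in GMUCT and 0.92 and 1.07 RPKM in RNA-seq, and AT1G75785, with no value in any library, covers 33.8% of TUB1. On the same strand, AT5G12240 covers 4.22% of TUB6, at 8.32 RPKM in GMUCT and 13.53 and 13.82 RPKM in RNA-seq. The strand setting of the counting is not given in the sources used here, and the part of these neighbours in the TUB values was not tested.

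TUB2 and TUB3, the tandem copies, lay on opposite sides. TUB2 had 257.29 RPKM in GMUCT, against 413.37 and 407.75 RPKM in RNA-seq, or -0.67 on the log2 scale (SE 0.07; limma adjusted p = 0.0117). TUB3 had 322.21 RPKM in GMUCT, against 267.69 and 254.06 RPKM in RNA-seq, above both. Its log2 ratio of 0.30 (SE 0.07) missed the threshold with a limma adjusted p of 0.0521, and passed it in 4 alternatives, with 0.0315 among genes of at least 5 RPKM and 0.0485 with a pseudocount of 1. TUB3 thus stood at 1.25 times TUB2 in GMUCT, and at 0.648 and 0.623 times TUB2 in the RNA-seq libraries, and the difference between their log2 ratios was 0.98. Summed, they had 579.5 RPKM in GMUCT and 681.06 and 661.81 RPKM in RNA-seq, a log2 ratio of -0.21. Summing removes the division of shared reads between them, but not a loss or a double count of such reads.

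TUB1 and TUB5 are the next closest copies, and they also lay on opposite sides. TUB5 had 70.42 RPKM in GMUCT, against 51.21 and 53.82 RPKM in RNA-seq, a ratio to the RNA-seq mean of 1.34. It was called higher, at 0.42 on the log2 scale (SE 0.06; limma adjusted p = 0.0190). TUB1 had 5.34 RPKM in GMUCT, against 7.13 and 7.15 RPKM in RNA-seq, or -0.39 on the log2 scale (SE 0.09; limma adjusted p = 0.0480). The TUB1 call was lost in 3 alternatives, at adjusted p = 0.0535 with a pseudocount of 0.1, 0.0532 with a trend with length removed and 0.0979 with libraries centred on their medians. The ratio of TUB5 to TUB1 was 13.2 in GMUCT and 7.18 and 7.53 in RNA-seq.

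TUB4 and TUB9, the third pair, were both lower in GMUCT. TUB4 had 122.82 RPKM in GMUCT, against 186.9 and 187.95 RPKM in RNA-seq (log2 ratio -0.61, SE 0.05; limma adjusted p = 0.00896). TUB9 had 34.82 RPKM in GMUCT, against 45.82 and 46.16 RPKM in RNA-seq (log2 ratio -0.40, SE 0.04; limma adjusted p = 0.0134). The TUB9 call was lost, at a log2 ratio of -0.18 and an adjusted p of 0.0556, once the trend with transcript length was removed. TUB9 has the longest transcript of the family. Late pollen markers VGD1, AGP6, AGP11 and RALF4, of the cell type TUB9 is known from, summed to 170.96 RPKM in GMUCT and to 379.26 and 391.29 RPKM in RNA-seq. Of the 4 markers 2 were called lower, beside 36.9% of all tested genes. VGD1 had 37.72 RPKM in GMUCT, against 234.2 and 259.51 RPKM in RNA-seq, and RALF4 had 3.7 RPKM in GMUCT, against 36.49 and 40.96 RPKM in RNA-seq. The other two lay above both RNA-seq libraries without passing the test, AGP6 with 78.81 RPKM in GMUCT, against 65.7 and 53.12 RPKM in RNA-seq, and AGP11 with 50.73 RPKM in GMUCT, against 42.87 and 37.7 RPKM in RNA-seq. Their part in the TUB9 value was not tested.

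**Figure D2:**
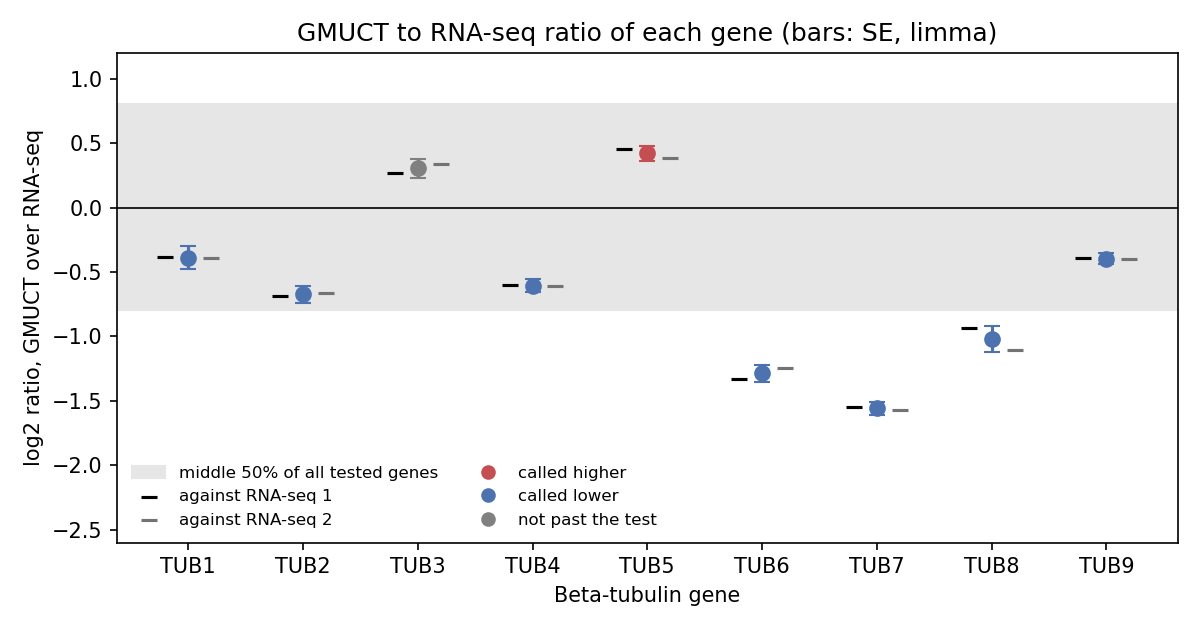
Log2 ratio of GMUCT over RNA-seq for the 9 genes (points, with SE bars from limma), with the ratio to each RNA-seq library as dashes and the range between the quartiles of all tested genes (-0.80 to 0.81) in grey. TUB6, TUB7 and TUB8 lie below the grey band, and TUB3 and TUB5 lie above 0.

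The make-up of the family differed between the assays. The 9 genes summed to 961.51 RPKM in GMUCT and to 1352.36 and 1339.47 RPKM in RNA-seq. TUB3 made up 33.5% of the sum in GMUCT and 19.4 ± 0.585% in RNA-seq (SD, n = 2), the widest difference, of 14.1 percentage points. TUB5 made up 7.32% in GMUCT and 3.90 ± 0.164% in RNA-seq. In the opposite direction, TUB7 made up 6.03% in GMUCT and 12.8 ± 0.230% in RNA-seq, and TUB6 6.16% in GMUCT and 10.8 ± 0.353% in RNA-seq. TUB2 made up 26.8% in GMUCT and 30.5 ± 0.0887% in RNA-seq, and with TUB3 added the 2 genes made up 60.3% in GMUCT and 49.9 ± 0.673% in RNA-seq. These differences were larger than the spread between the RNA-seq libraries, while the spread of GMUCT is unknown. TUB1 and TUB9 differed by 0.025 and 0.20 percentage points between the assays, TUB4 by -1.15 and TUB8 by -1.51 points (GMUCT minus RNA-seq).

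**Figure D3:**
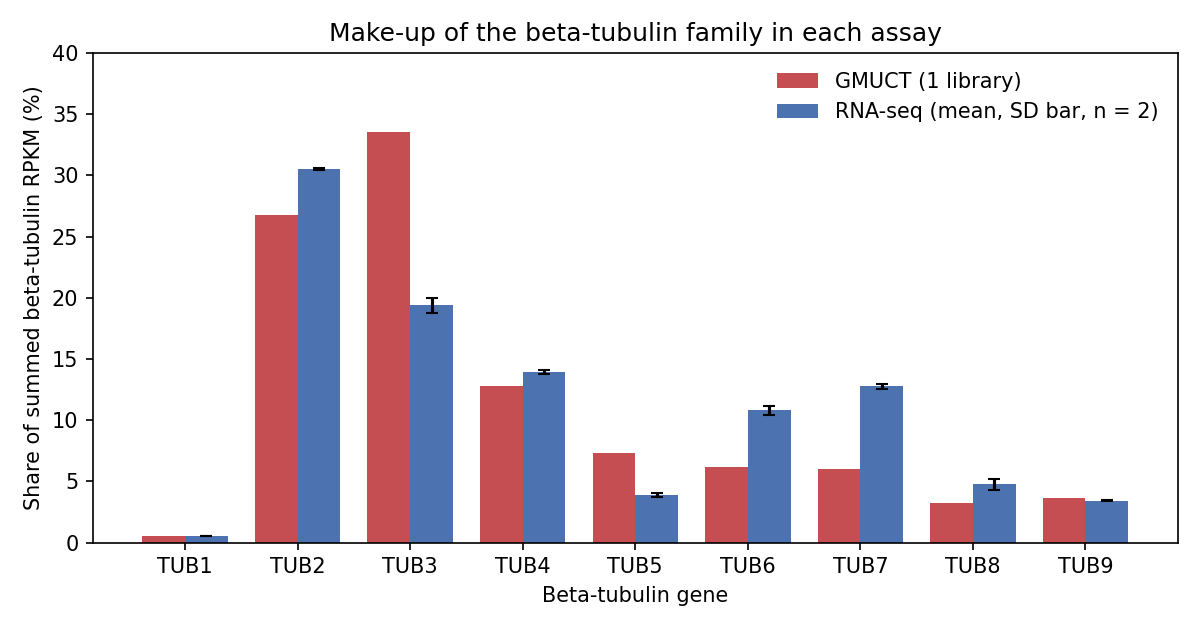
Share of each gene in the summed beta-tubulin RPKM (%), in GMUCT (red bars, 1 library) and RNA-seq (blue bars, mean with SD, n = 2). TUB3 is the tallest bar in GMUCT at 33.5%, and TUB2 in RNA-seq at 30.5%.

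The alpha-tubulin genes, whose products pair with beta-tubulin in the dimer, were spread on both sides. Of the 6 genes TUA3 and TUA6 were called higher in GMUCT, TUA1 and TUA5 lower, and TUA2 and TUA4 did not pass. These counts are near the shares of all tested genes, 32.1% called higher and 36.9% lower. The TUA1 call was lost without a filter (limma adjusted p = 0.0571), and TUA4 passed as higher with centred libraries (limma adjusted p = 0.0306). Their median log2 ratio was 0.04, against -0.61 for the beta-tubulin genes. TUA6 had 500.37 RPKM in GMUCT, against 243.98 and 249.86 RPKM in RNA-seq (log2 ratio 1.02, SE 0.07; limma adjusted p = 0.00690). TUA3 and TUA5 are tandem copies of 97.9% coding identity and lay on opposite sides, as the tandem pair of beta-tubulin genes did. TUA3 had 154.05 RPKM in GMUCT, against 95.11 and 88.53 RPKM in RNA-seq (log2 ratio 0.74). TUA5 had 110.05 RPKM in GMUCT, against 154.02 and 149.83 RPKM in RNA-seq (log2 ratio -0.46). Exact copies in the other gene were found for 32.0% of the windows of TUA3 and 35.4% of those of TUA5, so their values carry the same uncertainty, as do those of TUA2, TUA4 and TUA6 with 10.5%, 18.4% and 11.2% of windows found elsewhere.
The pollen gene TUA1 had 10.99 RPKM in GMUCT and 14.6 ± 0.643 RPKM in RNA-seq (SD, n = 2), a log2 ratio of -0.40. TUA2 had 200.2 RPKM in GMUCT and 217 ± 1.82 RPKM in RNA-seq, and TUA4 had 345.01 RPKM in GMUCT and 302 ± 10.5 RPKM in RNA-seq (SD, n = 2 each). The alpha-tubulin genes summed to 1320.67 RPKM in GMUCT and to 1032.78 and 1014.77 RPKM in RNA-seq. In GMUCT that sum was above the beta-tubulin sum, and in both RNA-seq libraries it was below it.

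Genes of tubulin folding and of microtubule organisation were mostly lower, apart from prefoldin, and their counts are to be read against the 36.9% and 32.1% of all genes called in each direction. The CCT chaperonin folds actin and tubulin, and all 9 of its subunit genes were called lower in GMUCT, with a median log2 ratio of -0.84 and values between -1.27 in CCT8 and -0.23 in CCT7. The number called lower was 8 without a filter, 7 without the trend in limma's variance, 7 with centred libraries and 6 with the length trend removed. CCT7 was among those lost in 3 of these alternatives, with an adjusted p between 0.0771 and 0.415. Prefoldin hands tubulin to that chaperonin, and 4 of its 6 genes were called higher and 1 lower, with a median of 0.51. PFD4 was the highest, with 70.99 RPKM in GMUCT and 17.2 ± 3.10 RPKM in RNA-seq (SD, n = 2; log2 ratio 2.03), and PFD1 the lowest, at -0.84. The prefoldin count depended on length, since 1 gene was called higher once the length trend was removed. Of the 5 folding cofactors, which assemble the dimer, 3 were lower and 1 higher, with TFCC at -1.60 and TFCB at 1.44. The gamma-tubulin complex nucleates microtubules, and 5 of its genes were listed (TUBG1, TUBG2, GCP2, GCP3 and GCP4). All 5 were called lower, between -1.31 in TUBG1 and -0.55 in GCP3, and 3 were with the length trend removed. GCP3 was among those lost there, at a log2 ratio of -0.02 and an adjusted p of 0.823. Of 10 microtubule-associated proteins 8 were lower and 2 higher. Those called lower were 7 without a filter, where 1 was called higher, 7 with centred libraries and 6 with the length trend removed. The cross-linker gene MAP65-1 had the lowest log2 ratio of them, at -2.04, and SPR1, which acts in directional cell expansion, the highest, at 0.62. The actin family, the other large cytoskeletal family, had all 8 genes called lower, with a median of -1.88 and a range between -3.38 in ACT8 and -0.53 in ACT7. Shared sequence among the partner and actin genes was not searched, and the differences between these lists and the beta-tubulin genes were not tested.

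**Figure D4:**
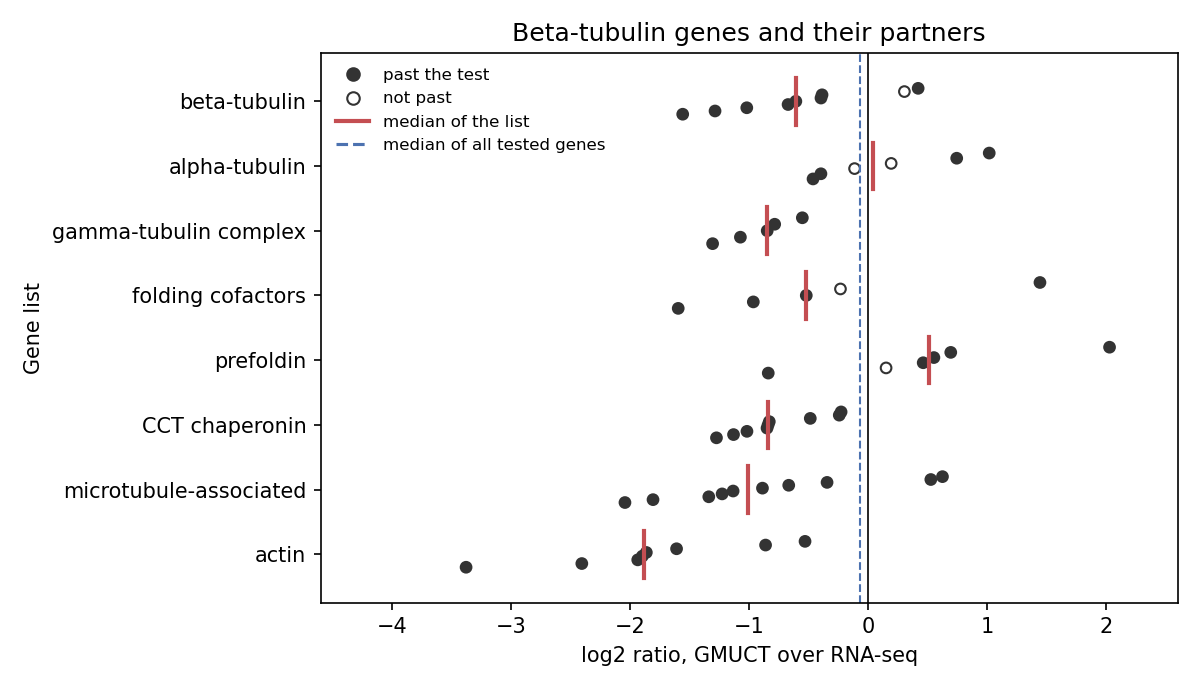
Log2 ratio of GMUCT over RNA-seq of each tested gene (filled points past the limma threshold, open points not), by gene list, with the median of each list (red line) and of all tested genes (dashed blue line, -0.07). The beta-tubulin median lies at -0.61, between those of actin (-1.88) and prefoldin (0.51).

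Genes with the profile most like TUB5 and TUB7 were found by the largest absolute difference in log2(RPKM + 0.5) over the 3 libraries. Nearest to TUB5 were AT5G59950, an RNA-binding family protein gene, at 0.011, ARGAH2, an arginase family gene, at 0.024, and ATR2, a P450 reductase gene, at 0.058. Nearest to TUB7 were the methyltransferase gene TSM1 at 0.036, AT3G28980 at 0.065, and SBPASE, a Calvin cycle gene, at 0.072. With 3 libraries and 2 assays, such likeness means only a like level in each assay.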

How the data were processed

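Polyadenylated RNA was profiled by GMUCT (1 library) and RNA-seq (2 libraries). The authors deposited 1 table of gene identifiers and RPKM values per library. Per the submitters' processing notes, cutadapt 1.4.2, STAR 2.4.0 and TAIR10 were used. The counting tool, strand setting, read totals and gene lengths behind the RPKM values are not given in the sources consulted. A gene missing from a table was taken as 0 RPKM.

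Genes with a mean of the GMUCT value and the RNA-seq mean of at least 1 RPKM were tested as log2(RPKM + 0.5) with limma 3.58.1 (R 4.3.3; eBayes with trend, two-sided, Benjamini-Hochberg at 0.05), a scale that understates ratios of low genes. The labels do not say whether the replicates are separate plants, and p-values may reflect technical spread alone.

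Depth was estimated from low RPKM values times gene length, of which 32.1%, 32.5% and 30.9% lay within 0.1 of a whole read in GMUCT, RNA-seq 1 and RNA-seq 2. A depth not fitted to the values would give 20% by chance. The depth was chosen on these same values, so the difference is no test of it, and read numbers are approximate. Gene models and sequences are from RefSeq TAIR10.1, handled with Python 3.11.15 and Biopython 1.88. Members and lists were chosen with earlier results of these data known. Named genes are all alpha- and beta-tubulin genes, the extremes of each other list, and the 3 nearest profiles to the highest and the lowest member. Alternatives covered pseudocounts, filters, trend, centring, length, fold and each RNA-seq library left out.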

Additional observations from a re-analysis of the deposited data

How the results depend on the processing

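The log2 ratios of the 9 beta-tubulin genes kept their sign in all 9 alternatives run for each, but most of these could not change it. Filters and the variance trend leave a ratio as it is, and leaving out a library repeats the ratio to the other. Pseudocounts cannot turn the sign of a gene that lies on one side of both RNA-seq libraries. Only centring and the length trend could have done so. The ranges were -1.57 to -1.43 for TUB7, 0.38 to 0.55 for TUB5 and 0.27 to 0.43 for TUB3. The number called higher was 2 in place of 1, through TUB3, with a pseudocount of 1, a filter of 5 RPKM, centred libraries or the length trend removed. The number called lower was 6 in place of 7, through TUB1, with a pseudocount of 0.1 or centred libraries. It was 5 with the length trend removed, through TUB1 and TUB9. Centring added 0.13 to every log2 ratio and reversed TUA2, to 0.011. No beta-tubulin gene reached 4-fold (0 in place of 2 at 2-fold). Among partners, 1 alpha-tubulin gene was called lower and 1 microtubule-associated gene higher without a filter, and with the length trend removed 3 gamma-tubulin complex genes were lower and 1 prefoldin gene higher. The lower calls fell from 9 to 8, 7, 7 and 6 for the 9 CCT genes (no filter, no trend, centring, length). For the 10 microtubule-associated genes they fell from 8 to 7, 7 and 6 (no filter, centring, length). The cause was not tested. Over all genes, 9098 were higher and 6325 lower without a filter, against 6489 and 7468. With an RNA-seq library left out no residual degrees of freedom remained, so only ratios, shares and the size rule were recomputed. No paired analysis was possible because the groups share only replicate number 1.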
